A study of Mus musculus with 32 samples.

Results

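H3K4me3 promoter regions that carried no acetylation peak were described in mouse leukemias driven by *MLL-AF9*, with intact *Kat2a* (WT) or after its excision (KO). A member, chosen by the peak calls for H3K4me3, H3K9ac and H3K27ac, is a merged region that holds H3K4me3 peaks of both replicates (R1 and R2), has its center within 5 kb of a GENCODE M21 transcription start site (TSS), and overlaps by not even 1 bp an H3K9ac peak of R1 or R2 or an H3K27ac peak of R2 of the same genotype. There were 179 members among 12049 H3K4me3 promoter regions of WT and 397 among 13098 of KO. All other promoter regions are called acetylated below. Since these calls chose the members, their own values for the marks are given as a description, with no test.

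In both genotypes the donor mice carried *Kat2a* Flox/Flox alleles and received pIpC. WT donors lacked Mx1-Cre and KO donors carried it as Mx1-Cre+/-, a recombinase under an interferon-inducible promoter that acts in blood cells and other tissues. Lineage-depleted bone marrow was transduced with a retrovirus for *MLL-AF9* and transplanted into irradiated recipients, and bone marrow with terminal leukemia was pooled from 5 animals for WT and 4 for KO. H3K4me3, H3K4me1, H3K9ac and H3K27ac were immunoprecipitated in 2 replicates per genotype, which gives 16 libraries, and H3K27ac and H3K4me1 used fewer cells than the other marks. The replicates share their pool, so the spread between them is technical and leaves out the variation between animals. The pools were total bone marrow and can hold recipient cells. A mark present in part of the cells cannot be told apart from a weaker mark in all of them, nor can H3K4me3 and an absent acetylation be placed in the same cells.

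H3K4me3 is laid down around transcription start sites, most of all at CpG islands, and can be present where a gene is hardly transcribed. Acetylation of H3K9 and H3K27 goes with active promoters, and Kat2a is an acetyltransferase that acts on H3K9. H3K4me1 is broadest at enhancers and on the flanks of promoters. Promoters with H3K4me3 but little acetylation are known from developmental genes that are held silent in cells of another lineage.

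Depth is unknown, since the peak lists hold no read counts, and the absence of a peak means only that none was listed. The H3K4me3 lists held 23297 and 15685 peaks in WT R1 and R2 and 20853 and 19517 in KO. The H3K9ac lists held 33605 and 31677 in WT and 27657 and 28861 in KO, so both WT lists were longer. The H3K27ac R2 list was longer in KO, with 46047 peaks against 29757 in WT. What these unequal lists contributed to the counts of members was not tested beyond the cut to equal numbers given below. R1 of H3K27ac and of H3K4me1 had median peak widths of 48 to 49 bp, and at most 0.0485% of their peaks had a q-value of at most 0.05, so R1 of these marks did not enter the definition. Of 8 myeloid marker genes (*Mpo*, *Elane*, *Cebpa*, *Spi1*, *Csf1r*, *Csf3r*, *Ctsg*, *Prtn3*), 7 had an acetylated promoter region in WT and 6 in KO, and none of the 4 B cell markers had an H3K4me3 promoter region in either genotype. Markers of other cell types had some: 1 of 4 erythroid markers had an acetylated region in WT and 3 of 4 in KO, 1 of 4 T cell markers (*Tcf7*) had an unacetylated region in KO and none a region in WT, and 2 of 5 endothelial and stromal markers had a region in each genotype.

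The following sequences are shown because CpG-rich sequence was more frequent at members than at acetylated regions. They are 4 of 8 pieces taken from the members of KO with the largest H3K4me3 fold enrichment that hold the TSS of a protein-coding gene, and each of the 4 members overlapped an acetylated region in WT. Each is the part outside annotated untranslated regions of the 300 bp around the H3K4me3 summit, read 5′ to 3′ on the strand of the gene from RefSeq GRCm38.p6 (mm10), with every CpG in capitals.
Sptbn1 (chr11:30267628-30267927, minus strand): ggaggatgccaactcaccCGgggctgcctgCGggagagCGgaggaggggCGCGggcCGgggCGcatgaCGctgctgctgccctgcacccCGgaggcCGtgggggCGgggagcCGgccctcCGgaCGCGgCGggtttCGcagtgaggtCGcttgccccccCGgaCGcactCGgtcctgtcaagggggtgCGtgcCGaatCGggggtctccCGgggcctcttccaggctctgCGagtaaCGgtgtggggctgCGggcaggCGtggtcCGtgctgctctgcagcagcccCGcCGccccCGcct
Adgrl3 (chr5:81020288-81020570, plus strand): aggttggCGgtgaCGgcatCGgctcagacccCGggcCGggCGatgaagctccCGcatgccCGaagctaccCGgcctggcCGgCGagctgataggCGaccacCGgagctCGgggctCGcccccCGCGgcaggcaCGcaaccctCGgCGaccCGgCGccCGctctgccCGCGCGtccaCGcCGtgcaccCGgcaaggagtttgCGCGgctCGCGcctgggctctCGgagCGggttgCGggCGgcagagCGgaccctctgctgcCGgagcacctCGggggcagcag
Mctp1 (chr13:76384442-76384741, plus strand): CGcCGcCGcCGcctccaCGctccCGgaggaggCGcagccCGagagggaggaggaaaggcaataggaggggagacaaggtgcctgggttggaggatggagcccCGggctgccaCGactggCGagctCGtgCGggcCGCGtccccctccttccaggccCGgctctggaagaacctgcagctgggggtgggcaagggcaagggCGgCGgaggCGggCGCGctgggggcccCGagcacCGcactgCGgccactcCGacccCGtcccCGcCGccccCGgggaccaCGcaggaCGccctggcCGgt
Celsr2 (chr3:108415553-108415813, minus strand): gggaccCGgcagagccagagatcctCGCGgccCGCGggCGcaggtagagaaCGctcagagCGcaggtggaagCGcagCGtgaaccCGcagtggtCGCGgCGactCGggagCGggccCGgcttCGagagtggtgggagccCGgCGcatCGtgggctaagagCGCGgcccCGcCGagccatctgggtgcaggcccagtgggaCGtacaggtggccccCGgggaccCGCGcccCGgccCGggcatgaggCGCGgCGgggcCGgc

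The *Sptbn1* piece begins 242 bp downstream of the nearest TSS of *Sptbn1*, which encodes a beta-spectrin, and 283 of its 300 bases lie in annotated exons, with no coding base, where the gene *Gm8098* overlaps *Sptbn1*. The piece at *Adgrl3*, an adhesion receptor of the latrophilin family, ends 1 bp before an annotated TSS of that gene and lies in an exon of another of its transcripts. The *Mctp1* piece has 207 coding bases and 93 bases upstream of the nearest TSS. The *Celsr2* piece lies wholly upstream of this gene of an atypical cadherin. The pieces held 33, 40, 32 and 35 CpG, at a GC content of 75.7% to 76.2%.

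Members were a small part of the H3K4me3 promoters in both genotypes, and there were more of them in KO. They made up 1.49% of the promoter regions in WT (95% Wilson interval 1.28 to 1.72, which covers counting error only) and 3.03% in KO (2.75 to 3.34). The KO count was 2.22 times the WT count. With R1 of H3K4me3 and H3K9ac alone the order turned, with 2194 members in WT and 1954 in KO, whereas with R2 alone there were 708 and 1664. When every library of a mark was cut to the same number of peaks, the counts were 148 and 238. Regions are not replicates, and these counts carry no test.

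Per library, the share of promoter H3K4me3 peaks without an H3K9ac peak of the same replicate number was 12.2% in WT R1 (2326 of 19138 peaks) and 4.88% in WT R2 (716 of 14682). It was 14.1% in KO R1 (2461 of 17474) and 11.1% in KO R2 (1908 of 17170). WT R1 lay between the KO values, so the genotypes overlapped. The means were 8.52% ± 5.15 in WT and 12.6% ± 2.10 in KO (SD, n = 2), and the difference of 4.08 percentage points was smaller than the SD of WT (p = 0.67 by a two-sided exact permutation test, which with 2 libraries a group cannot fall below 0.33). Within the replicate numbers, KO was higher by 1.93 points for R1 and by 6.24 points for R2.

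The members were narrow and weak for H3K4me3. Their median width was 575 bp in WT (quartiles 431.5 and 766.5), against 1076 bp at acetylated regions (775 and 1473). In KO it was 518 bp (407 and 714), against 966 bp (680 and 1334). Among regions from 300 to under 500 bp, 65 of 700 were unacetylated in WT (9.29%) and 168 of 1404 in KO (11.97%), and among regions of at least 1500 bp 0.0715% (2 of 2796) and 0.0445% (1 of 2248). Fold enrichment at the summit ranked low in its own list, with median percentiles of 38.2 and 25.6 in WT R1 and R2 and of 39.6 and 31.1 in KO. No member of WT and 16 members of KO lay at or above the 60th percentile of H3K4me3 fold enrichment averaged over the replicates. Most H3K4me3 peaks at members still passed a q-value of 0.05, with 96.6% and 82.1% in WT R1 and R2 and 86.9% and 92.7% in KO.

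**Figure D1:**
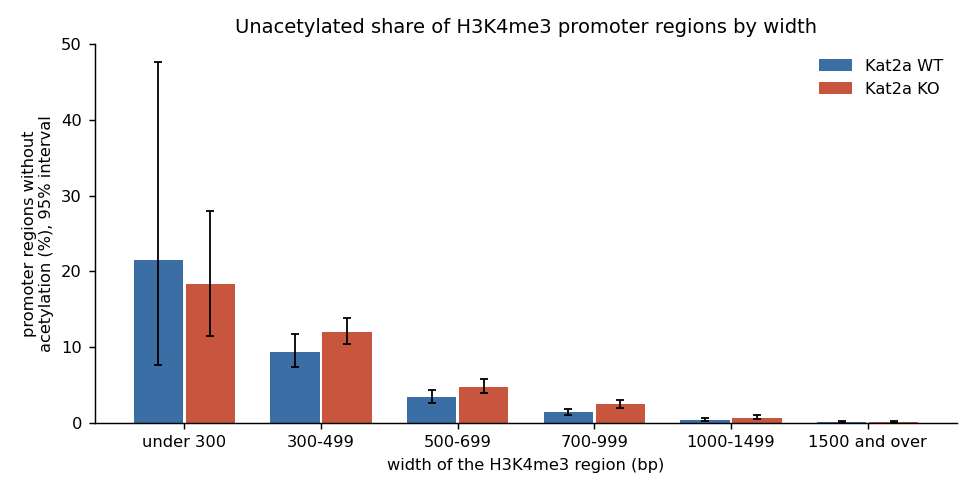
Share of H3K4me3 promoter regions without acetylation (y axis, percent) by width of the region (x axis, bp) in *Kat2a* WT (blue) and *Kat2a* KO (red). Bars start at 0 and error bars are 95% Wilson intervals; the share was highest under 300 bp, where WT holds 3 of 14 regions, and lowest at 1500 bp and over.

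The nearest acetylation peak was mostly far away. The median gap was 27016 bp in WT and 29714 bp in KO. Over 10 kb separated 121 of 179 members in WT (67.6%, 60.4 to 74.0) and 276 of 397 in KO (69.5%, 64.8 to 73.8) from acetylation. A smaller group lay beside an acetylated stretch, with 19 members of WT (10.6%) and 64 of KO (16.1%) within 500 bp. At the limit of the definition, the WT member nearest to acetylation was at *Fam129c*, 34 bp away, and the acetylated WT region with the least overlap was at *Zfp503*, with 16 bp. In KO the nearest member was at *Sp3*, 1 bp away, and the least overlap was 7 bp, at *Rin2*. The member farthest from a TSS lay at 4542 bp in WT (*AI464131*) and 4466 bp in KO (*Gm27527*). Past 5 kb there were 14 more unacetylated regions in WT, the nearest at 5983 bp from a TSS of *Pou4f1*, and 37 in KO, the nearest at 5259 bp from one of *Srgn*.

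Members, which were narrower, held a TSS less often than acetylated regions did, a share that was not split by width. The median distance from the center to the nearest TSS was 219 bp at WT members and 240 bp at acetylated WT regions. In KO it was 202 bp and 232 bp. A TSS lay within 109 of 179 members in WT (60.9%, 53.6 to 67.7) and 81.2% of acetylated regions, and within 227 of 397 members in KO (57.2%, 52.3 to 62.0) and 78.4% of acetylated regions. Most of the 70 WT and 170 KO members without a TSS were centered downstream of the nearest one (52 and 116), at a median distance of 516.5 and 530.5 bp. This position was not particular to members, as 72.1% of all WT and 71.8% of all KO promoter regions were centered downstream. Of all members 63.7% in WT and 65.5% in KO were. Members with the TSS of a protein-coding gene numbered 103 in WT and 210 in KO. For 7 of the 103 (6.80%) and 25 of the 210 (11.9%), the same gene had another promoter region that was acetylated.

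CpG-rich sequence was more frequent at members than at acetylated promoters. A 300 bp window at the H3K4me3 summit was called CpG-rich with a GC content of at least 50% and a CpG observed-to-expected ratio of at least 0.6. In WT this held for 155 of 179 members (86.6%, 80.8 to 90.8) and 73.0% of acetylated regions, and in KO for 340 of 397 members (85.6%, 81.9 to 88.8) and 72.7%. The difference was widest among regions under 500 bp, where 86.8% of WT members (59 of 68, 76.7 to 92.9) and 80.9% of KO members (148 of 183, 74.6 to 85.9) were CpG-rich, against 55.3% of acetylated regions in either genotype. Among regions of at least 1000 bp the acetylated share lay inside the interval of the members, with 86.7% (13 of 15, 62.1 to 96.3) against 76.3% in WT and 92.3% (24 of 26, 75.9 to 97.9) against 79.5% in KO. Median GC content was 67.3% at members and 64.3% at acetylated regions in WT, and 68.3% and 64.3% in KO. Sequence was not used to choose members, but width was tied to the choice, and no test was made.

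Short factor motifs, none of which contains another, were counted on both strands of the same windows. The GC box GGGCGG, which contains a CpG, was present in 58.7% of WT members (51.3 to 65.6) and 64.2% of KO members (59.4 to 68.8), and in 49.6% of all promoter regions of each genotype. The ETS core CCGGAA, bound by Gabpa among other factors, was present in 12.8% of WT members (8.72 to 18.5) and 13.4% of KO members (10.4 to 17.0), against 17.9% and 18.3% of all promoter regions, a value inside the WT interval and above the KO interval. The Myc E-box CACGTG was in 4.47% and 4.53% of members and in 5.64% and 5.76% of all promoter regions, with member intervals that include the latter. CCAAT was in 24.0% of WT members and 18.1% of KO members, and in 18.8% and 18.7% of all regions. TATAAA was in 5.03% and 2.77% of members, against 3.35% and 3.22%, and the YY1 core AAGATGG in 1.68% and 3.53%, against 4.62% and 4.73%. These are matches of letters in a window, and factor binding was not measured.

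H3K4me1, which the definition did not use, covered members and other promoters of the same width at similar rates. In WT R2, 26 of 179 members (14.5%, 10.1 to 20.4) overlapped an H3K4me1 peak, near the share of all WT promoter regions (17.8%). In KO R2, 139 of 397 members did (35.0%, 30.5 to 39.8), below the 45.6% of all KO promoter regions. Within widths the KO shares came together. Under 500 bp, 29.0% of members (53 of 183) and 28.2% of acetylated regions overlapped H3K4me1, from 500 to under 1000 bp 38.8% (73 of 188) and 41.1%, and from 1000 bp 50% (13 of 26) and 54.1%, with the acetylated share inside the interval of the members each time. In WT the shares of members were 16.2% (11 of 68), 12.5% (12 of 96) and 20% (3 of 15), against 11.0%, 13.4% and 21.7%. The lists behind the genotypes differ, with 45770 H3K4me1 peaks in WT R2, of which 34.3% had a q-value of at most 0.05, and 78042 in KO R2, of which 83.6% did. With 1 usable H3K4me1 library per genotype, WT and KO shares were not compared. The H3K27ac list of WT R1, also outside the definition, had a peak in 0 of 179 WT members (Wilson upper limit 2.10%) and in 17.3% of acetylated WT regions, and that of KO R1 in 0 of 397 KO members (upper limit 0.958%) and 0.307% of acetylated KO regions. Members were chosen to lack H3K27ac of R2 from the same pool, so these zeros are no independent check. The R1 lists also hold narrow, weak peaks, and these shares were not split by width.

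**Figure D2:**
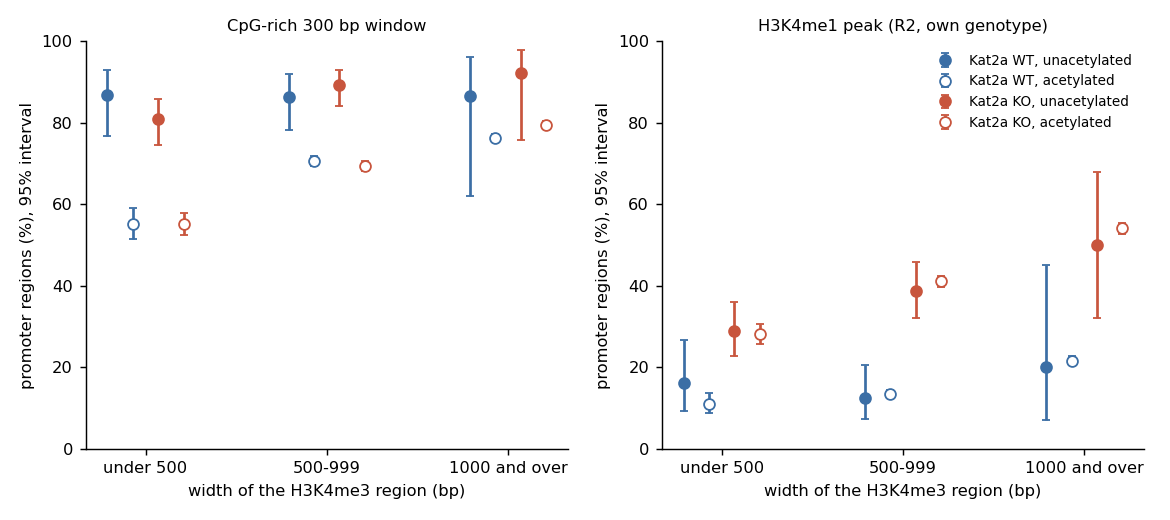
Share of promoter regions (y axis, percent) with a CpG-rich window at the H3K4me3 summit (left) and with an H3K4me1 peak of R2 of the same genotype (right), by width of the region (x axis, bp). Filled points are unacetylated and open points acetylated regions, with 95% Wilson intervals; the sets separate in the left panel under 1000 bp, whereas the intervals overlap at every width in the right panel.

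Some members were common to both genotypes. Of the WT members, 53 overlapped 53 KO members, which is 29.6% of the WT and 13.4% of the KO set. Of all promoter regions, 162 of WT (1.34%) and 72 of KO (0.55%) overlapped only members of the other genotype. A further 20 of WT (0.166%) and 4 of KO (0.0305%) overlapped both a member and an acetylated region. The 53 pairs include 1 such region of each genotype. A protein-coding TSS lay in 35 of these pairs, 48 were CpG-rich and 37 were over 10 kb from acetylation in both genotypes. Their median width was 593 bp in WT and 567 bp in KO. H3K4me1 R2 overlapped 5 of them in WT, 27 in KO and 3 in both. The number of shared members was 242 with R2 alone and 342 with R1 alone.

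Among shared members with a protein-coding TSS, *Inhbb*, which encodes the beta B chain of activins and inhibin B, had the largest mean H3K4me3 fold enrichment (chr1:119421319-119422415 in WT). The values were 9.02 in WT R1, 3.96 in WT R2, 5.89 in KO R1 and 6.97 in KO R2. The KO values lay between the WT values, and the WT replicates were farther apart than the genotypes. The nearest acetylation peak was 76119 bp away in WT and 35045 bp away in KO. *Tgfb2*, a ligand of the TGF-beta family, had values of 5.35, 4.43, 5.66 and 4.86 in the same order, and was the widest member of WT (1716 bp, chr1:186704020-186705735). The overlapping KO member was 634 bp wide, and a KO H3K4me1 peak there had a fold enrichment of 3.82. The values of the genotypes overlapped here as well.

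*Cacnb3*, for an auxiliary subunit of voltage-gated calcium channels, had H3K4me3 values of 7.48, 4.11, 3.56 and 7.32 in WT R1, WT R2, KO R1 and KO R2 (chr15:98634187-98635045 in WT). *Chrna5*, for a subunit of nicotinic acetylcholine receptors, had 5.68, 3.48, 4.25 and 4.86 (chr9:54981228-54981647 in WT). *Dgki*, a diacylglycerol kinase, had 7.17, 3.79, 5.54 and 4.83. In all 3 the highest value came from WT R1, and the genotypes overlapped, with both KO values between the WT values at *Chrna5* and *Dgki*.

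Other shared members were of mixed function. *Ranbp17*, a nuclear transport receptor of the importin family, had 7.48, 3.22, 5.86 and 4.53, and *Cgn*, which encodes the tight junction protein cingulin, had 7.02, 4.46, 4.06 and 5.23. *Zdhhc2* (a palmitoyltransferase), *Ttc9*, *Rab40b* (a small GTPase) and *Cpm* (a carboxypeptidase) had values from 3.33 to 6.02 over the 4 libraries. The *Zdhhc2* region was 305 bp from acetylation in WT and 34347 bp in KO, while those of the other 3 genes were at least 25979 bp away in both. At *Rab40b* and *Cpm* both WT values exceeded both KO values, but fold enrichments of different libraries are not scaled to each other. *Slain1*, whose product binds microtubules, was a mixed case, in which a WT member of 305 bp with values of 3.42 and 3.16 overlapped a KO member of 1008 bp with values of 8.18 and 5.23 that also reached into an acetylated WT region.

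**Figure D3:**
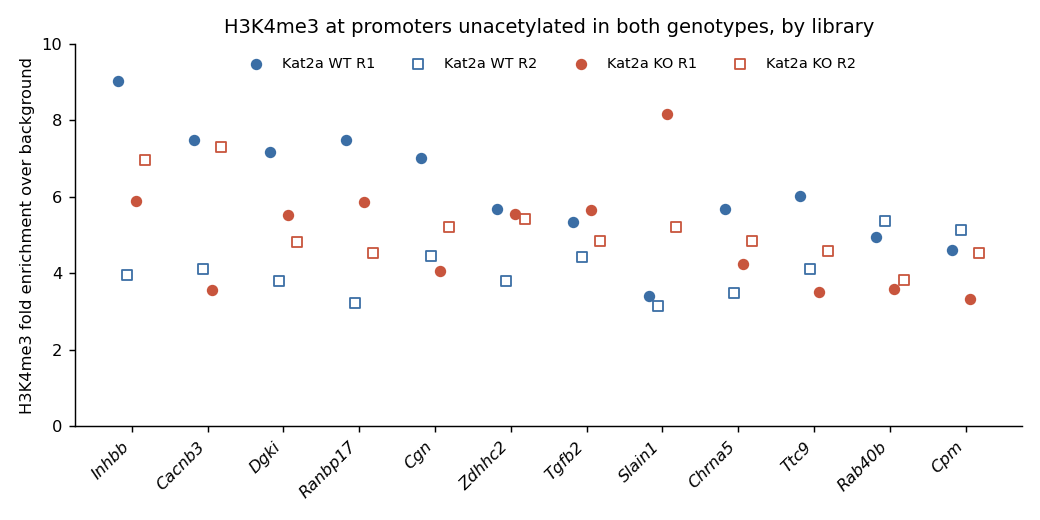
H3K4me3 fold enrichment over background (y axis, ratio) in each of the 4 libraries at promoters unacetylated in both genotypes. Shown are the 12 with the largest mean among those that hold a protein-coding TSS (x axis, genes). Filled circles are R1 and open squares R2, blue is *Kat2a* WT and red *Kat2a* KO; the values run from 3.16 to 9.02, and WT R1 and R2 often lie farther apart than the genotypes.

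The state of the other members in the other genotype differed by direction. Among WT members, 52 were members in KO too, 21 (11.7%, against 91.5% of all WT promoter regions) overlapped an acetylated KO promoter region and 1 overlapped both kinds. Of the rest, 65 had a KO H3K4me3 peak that was not part of a promoter region of both replicates. Of these, 50 had no acetylation (27.9% of the members, against 0.838% of all WT promoter regions) and 15 had it (8.38%, against 4.39%). Another 40 had no H3K4me3 peak in KO (22.3%, against 1.76% of all WT promoter regions), 8 of them acetylated. Among KO members, 52 were members in WT too, 129 (32.5%, against 87.1% of all KO promoter regions) overlapped an acetylated WT promoter region and 1 overlapped both kinds. A further 162 had a WT H3K4me3 peak outside such a region. Of these, 76 had acetylation (19.1% of the members, against 10.1% of all KO promoter regions) and 86 had none (21.7%, against 0.855%). Another 53 had no H3K4me3 peak in WT (13.4%, against 1.3% of all KO promoter regions), 22 of them acetylated.

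**Figure D4:**
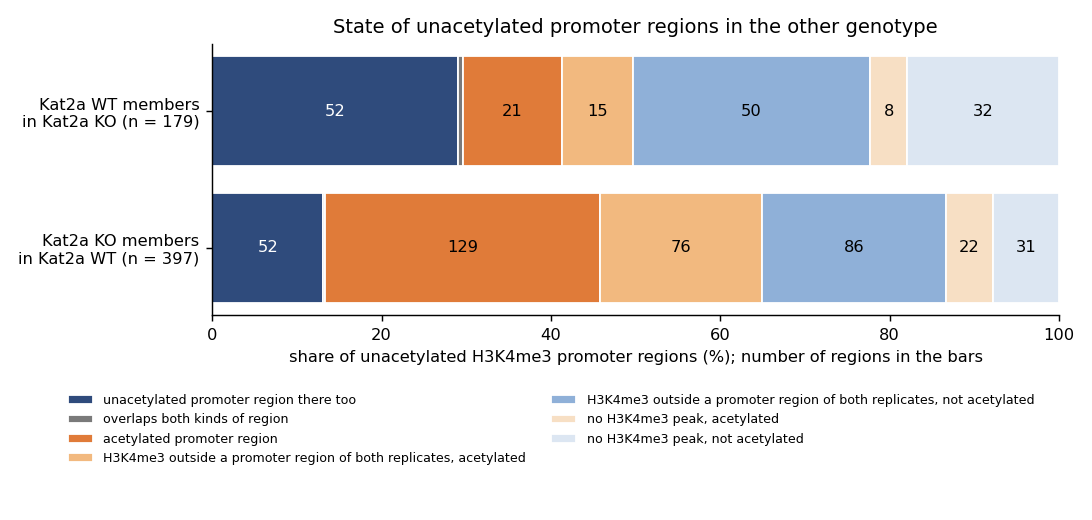
State in the other genotype of the 179 members of *Kat2a* WT (top) and the 397 members of *Kat2a* KO (bottom), as a share of the members (x axis, percent) with the number of regions in each segment. The darkest orange marks overlap with an acetylated promoter region of the other genotype, and the darkest blue overlap with a member there. These follow the state of the overlapping region, whose acetylation need not lie on the member. Paler orange and blue mark members outside such regions, with and without an acetylation peak of the other genotype. Grey is the 1 unnumbered region per genotype that overlapped both kinds. An acetylated promoter region of the other genotype was overlapped by 129 KO members and 21 WT members.

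Acetylation in the other genotype was found at 43 of 179 WT members (24.0%, against 97.2% of all WT promoter regions) and at 221 of 397 KO members (55.7%, against 98.2% of all KO promoter regions). H3K9ac was at 219 of the 221 KO members and at 38 of the 43 WT members. A KO H3K9ac peak of either replicate overlapped 38 WT members (21.2%, 15.9 to 27.8, against 97% of all WT promoter regions), and one of both replicates overlapped 11 (6.15%, against 93.4%). A WT H3K9ac peak of either replicate overlapped 219 KO members (55.2%, 50.2 to 59.98, against 98.2%), and one of both replicates overlapped 72 (18.1%, against 95%). H3K27ac R2 of the other genotype overlapped 9 WT members (5.03%, against 90.2% of all WT promoter regions) and 2 KO members (0.504%, against 79.0% of all KO promoter regions). By library, WT H3K9ac covered 187 KO members in R1 (47.1%, against 97.4% of all KO promoter regions) and 104 in R2 (26.2%, against 95.8%). KO H3K9ac covered 26 WT members in R1 (14.5%, against 94.5% of all WT promoter regions) and 23 in R2 (12.8%, against 95.8%). Where members and H3K9ac were taken from R2 alone, the order turned, with an H3K9ac peak of the other genotype at 23.7% of KO and 26.1% of WT members. With R1 alone the shares were 36.1% and 11.4%.

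The H3K9ac peaks found there were weak by their medians, though not every peak was. At KO members the WT peaks had a median fold enrichment of 3.18 in R1 and 3.50 in R2, at median percentiles of 38.0 and 30.2 of their lists, against 10.9 and 11.2 at acetylated KO regions. The highest WT peak at a KO member lay above the median of acetylated KO regions in both replicates, at 24.35 in R2. At WT members the KO peaks had medians of 2.98 and 3.42, at percentiles of 22.4 and 23.1, against 9.51 and 11.7. Most had a q-value of at most 0.05, with 92.0% and 93.3% of the WT peaks in R1 and R2 and 80.8% and 87.0% of the KO peaks. Seen from the other side, 110 of the acetylated WT promoter regions (0.927%) and 20 of the acetylated KO promoter regions (0.157%) overlapped only members in the other genotype.

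Among KO members with a protein-coding TSS, 37 had WT H3K9ac in both replicates. *Adgrl3* was the widest KO member (1513 bp, chr5:81019660-81021172), with H3K4me3 at 9.56 and 4.86 in KO R1 and R2 and at 7.02 and 4.46 in WT R1 and R2. Its WT H3K9ac peaks had fold enrichments of 2.85 and 2.96, and the nearest KO acetylation peak was 3559171 bp away. *Slain1* had WT H3K9ac of 3.34 and 4.29, and *Mctp1*, for a calcium-binding membrane protein, had 2.26 and 2.70. All of these lay far below the medians of 10.9 and 11.2 at acetylated regions.

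*Tnik*, a kinase of the Wnt pathway, was 1323 bp wide in KO with H3K4me3 at 5.45 and 6.23 (chr3:28262470-28263792) and had WT H3K9ac of 3.43 and 2.70. *Schip1* had WT H3K9ac of 3.04 and 3.07 over a KO region of 1468 bp, and *Zkscan16*, a zinc finger gene, 3.56 and 2.73. *Kif26b* and *Stk32c*, among the 6 widest KO members, also had WT H3K9ac in both replicates, at 2.68 and 4.35 and at 4.03 and 3.31. Each of these genes had H3K4me3 in WT too, in R1 at 3.42 to 9.97.

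Several of the strongest KO members had WT H3K9ac in R1 only. The region of *Sptbn1* had the largest mean among all KO members with a protein-coding TSS, with H3K4me3 at 7.85 and 7.66 in KO R1 and R2 and at 7.69 and 5.37 in WT (chr11:30267056-30268120). Its WT H3K9ac was 4.03 in R1, with no peak in R2. *Map6d1*, *Ltk* (a receptor tyrosine kinase) and *Celsr2* had WT R1 H3K9ac of 5.22, 3.83 and 4.22 and likewise none in R2. *Igsf11* had WT H3K9ac in R2 only (2.49). For *Fhod3*, a formin, and *Cdc42bpa*, a kinase, no WT acetylation was listed, and H3K4me3 was found in 1 WT replicate each, at 2.71 in R2 and 3.55 in R1.

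In the other direction, 6 WT members with a protein-coding TSS had KO H3K9ac in both replicates. *Dll4*, a Notch ligand, had H3K4me3 at 5.66 and 4.82 in WT R1 and R2 and at 5.38 and 3.69 in KO, and KO H3K9ac at 2.84 and 3.20 (chr2:119325644-119327111). *Acvr1*, a type I receptor for BMP and activin ligands, had KO H3K9ac of 2.77 and 4.94, and *Fads2*, a fatty acid desaturase, 2.9998 and 3.42 with KO H3K27ac of 3.49. The others were *Tmcc2* (2.53 and 3.51), *Kcnip3* (3.21 and 3.21), which encodes a calcium sensor of potassium channels, and *Arhgef17* (2.52 and 3.18), where the WT region also overlapped a narrower KO member. These fold enrichments were as low as those of WT H3K9ac at the KO members named above.

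The remaining WT members with the largest H3K4me3 enrichment were without KO acetylation or had it in 1 replicate. *Trmt9b* (7.17 and 4.38 in WT), *Mast4* (7.02 and 4.11) and *Lmo7* (6.35 and 4.11) had H3K4me3 in KO R1 alone, at 3.30, 4.91 and 4.91, with no acetylation. *Nrn1*, which encodes neuritin, had 6.68 and 3.96 in WT. The KO member there was a region of 261 bp at the edge of the WT region, with H3K4me3 at 2.78 and 3.83 in KO R1 and R2. The WT region itself also overlapped a KO R2 peak of 6.27, outside that KO member, and no KO R1 peak. *Lhfp* had KO H3K9ac of 2.79 in R1 and *Tmem151a* of 2.93 in R2. Among the widest, *Dlk2*, a relative of Notch ligands, had KO H3K9ac of 3.62 in R2 and *Epb41l4a* of 2.9998 in R1, while *Mkx*, a homeobox gene, and *Slco5a1* had none.

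At the level of genes, the unacetylated share was above that of all genes in lists of developmental, signalling and neuronal genes. It was also above it in small lists of genes of other cell types, given below. A protein-coding gene was assigned each promoter region within 1 kb of its TSS, and was counted as unacetylated when all of its regions were members. This held for 140 of 10682 genes in WT (1.31%) and 271 of 10954 in KO (2.47%), and 45 genes were unacetylated in both, 32.1% of the WT and 16.6% of the KO genes. Of the WT genes 20 had an acetylated region in KO, and of the KO genes 89 had one in WT. List shares are set beside those of all genes without a test.

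Developmental transcription factors had the largest number. They were unacetylated for 9 of 74 genes with a region in WT (12.2%, 6.53 to 21.5) and 22 of 73 in KO (30.1%, 20.8 to 41.4). *En2*, *Foxf1* and *Pax6* were unacetylated in both. *Pax6*, a regulator of eye and brain development, had H3K4me3 at 3.04 and 3.16 in WT R1 and R2 and at 4.17 and 3.11 in KO over its WT region of 1063 bp, which lay 142444 bp from acetylation. *En2*, a homeobox gene of the midbrain and hindbrain, had 4.82 and 4.82 in WT and 3.56 and 4.12 in KO.

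Of the 22 genes in KO, 8 had an acetylated region in WT, *Hey2*, *Neurog2*, *Prdm16* and *Sox13* among them, and 11 had no promoter region there. These states were not particular to the list, as 89 of all 271 unacetylated KO genes had an acetylated region in WT and 137 had no region there. *Hey2*, a repressor downstream of Notch, had H3K4me3 at 4.50 and 5.81 in KO R1 and R2 and at 7.35 and 4.65 in WT, with WT H3K9ac at 2.35 and 3.33. *Prdm16* had WT H3K9ac at 3.20 and 3.32, and *Neurog2*, a proneural factor, at 2.62 in R1 alone. No gene of the 9 in WT had an acetylated region in KO, against 20 of all 140 unacetylated WT genes. *Sox8* had no H3K4me3 peak in KO but had H3K9ac there in R2 (2.88), and *Atoh7* and *Pitx1* had no KO peak of either mark.

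Signalling and neuronal genes followed. Of morphogens and growth factors, 5 of 35 genes were unacetylated in WT (14.3%, 6.26 to 29.4) and 6 of 35 in KO (17.1%, 8.10 to 32.7), with *Fgf9*, *Inhbb*, *Ntn1* and *Tgfb2* in both. *Ephb6* and *Sema3f* were unacetylated in KO and acetylated in WT, where H3K9ac was 2.72 in R2 at *Ephb6* and 3.42 and 3.49 at *Sema3f*. Of neuronal channels and receptors, 5 of 31 were unacetylated in WT (16.1%, 7.09 to 32.6) and 8 of 38 in KO (21.1%, 11.1 to 36.3), with *Cacnb3*, *Chrna5* and *Grm8* in both and none with an acetylated region in the other genotype. *Grm8*, a metabotropic glutamate receptor, had H3K4me3 at 3.81 and 6.32 in the WT libraries and at 3.93 and 3.48 in those of KO. Of cadherins and protocadherins, *Cdh4* was unacetylated in WT (1 of 10) and *Cdh22*, *Cdh23* and *Celsr2* in KO (3 of 10), where *Cdh22* and *Celsr2* had an acetylated region in WT.

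Genes of other cell types in the marrow gave few cases on small lists, though at shares above those of all genes. Of endothelial and stromal genes, 1 of 5 was unacetylated in WT (20%, 3.62 to 62.4) and 2 of 4 in KO (50%, 15.0 to 85.0). Of erythroid and megakaryocyte genes, 1 of 6 was in WT (16.7%, 3.01 to 56.4). In KO it was 1 of 8 (12.5%, 2.24 to 47.1), an interval that includes the share of all genes. *Kdr*, the VEGF receptor of endothelial cells, was unacetylated in both genotypes, with H3K4me3 at 4.69 and 4.11 in WT R1 and R2 and at 3.60 and 3.46 in KO, and *Cxcl12*, a chemokine of stromal cells, was unacetylated in KO, at 2.21 and 2.77, and had an acetylated region in WT. *Gp1bb*, a platelet receptor subunit, was unacetylated in both genotypes, at 4.03 and 3.79 in the WT libraries and at 4.25 and 2.77 in those of KO. *Lef1* was unacetylated in WT alone (1 of 3 B and T cell genes) and *Tcf7* in KO alone (1 of 5), both of them factors of T cell development without a promoter region in the other genotype. *Col27a1* was the single collagen or laminin gene, in WT (1 of 5, with 0 of 4 in KO). Whether rare cells of other types contributed to these peaks was not tested.

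No myeloid or granule gene (0 of 20 in WT and 0 of 24 in KO), interferon gene (0 of 29 and 0 of 28), cytosolic ribosomal protein gene (0 of 80 in each), mitochondrial ribosomal protein gene (0 of 75 and 0 of 76), canonical histone gene (0 of 31 in each) or germline gene (0 of 5 in each) was unacetylated. Members more than 1 kb from a TSS do not enter these counts. One such WT member was centered 3928 bp from the TSS of *Ms4a3*, a gene of the myeloid list. Among stem cell and MLL-AF9 genes, 0 of 25 in WT and 1 of 27 in KO was, *Mycn*, with H3K4me3 at 3.27 and 3.71 in KO. Zinc finger genes were at 1 of 336 in WT (0.298%, 0.0526 to 1.67) and 4 of 337 in KO (1.19%, 0.463 to 3.01), intervals that include the shares of all genes. For the 6 lists without such a gene in either genotype, the Wilson upper limits ran from 4.58% for the ribosomal genes to 43.4% for the germline genes, all of them above the shares of all genes, so the zeros do not set these lists apart from all genes.

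**Figure D5:**
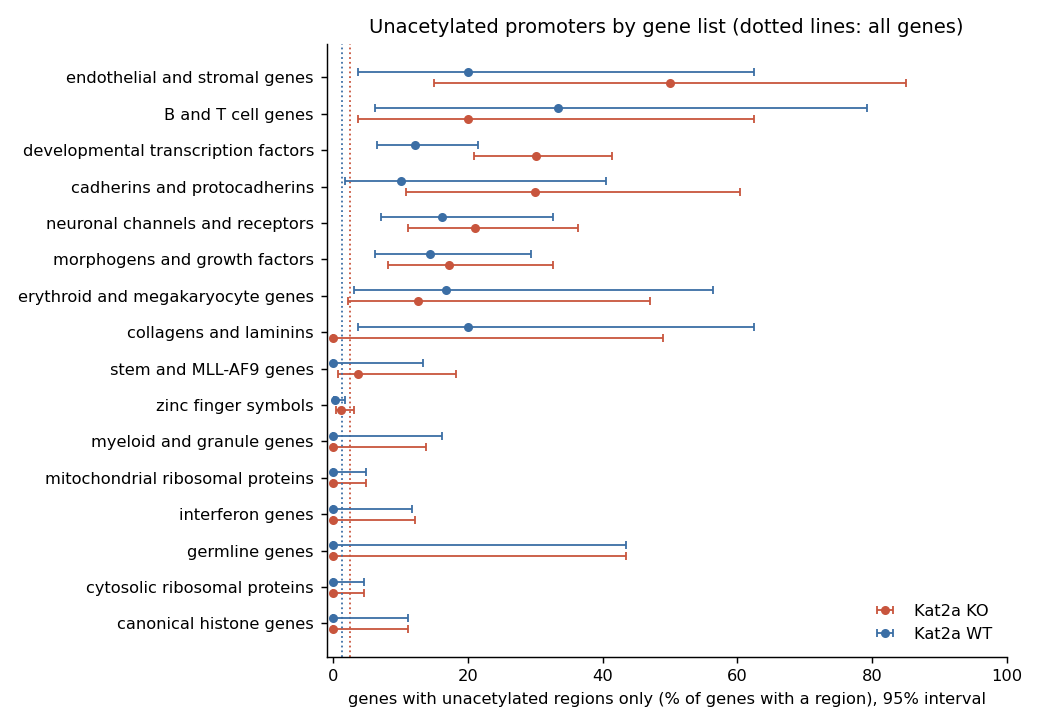
Genes whose H3K4me3 promoter regions were all unacetylated, as a share of the genes of each list with a promoter region (x axis, percent), in *Kat2a* WT (blue) and *Kat2a* KO (red). Error bars are 95% Wilson intervals and dotted lines the shares of all genes (1.31% and 2.47%); developmental transcription factors lie at 12.2% and 30.1%, and the ribosomal lists at 0.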

How the data were processed

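The peak lists of 16 ChIP-seq libraries were analysed, and the input libraries that the labels name were not analysed here. The authors mapped the reads to mm10 with BWA and ran MACS2 on each library (versions not given in the sources used here). In each deposited list a peak has its enrichment as a fold ratio over background. The deposited lists also hold −log10 values of the p-value and q-value. A score column in the deposited lists is 10 times the −log10 p-value and was not used further. The paper states a q-value threshold of 0.05, but the deposited lists also hold weaker peaks, which were kept. No counts are given, so depth is unknown. The paper left out a replicate each of H3K27ac and H3K4me1 without saying which; R1 was left out here, its peaks being narrow and weak.

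Peaks of both replicates were merged (overlap of 1 bp) with Python 3.11.15, numpy 2.4.6, pandas 2.3.3 and scipy 1.17.1, and figures were drawn with matplotlib 3.10.9. The interval code, tested on simulated data, matched bedtools 2.31.1 in 100 of 100 comparisons and found 96 of 96 planted members in 500 regions. Fold enrichment was ranked within its own list. Sequence came from RefSeq GRCm38.p6.

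Members and gene lists were chosen with earlier results of these data known. Among members with a protein-coding TSS, those named were the 12 per genotype with the largest mean H3K4me3 enrichment, the 12 largest shared ones, the 6 widest per genotype, the 6 with H3K9ac in both replicates of the other genotype, and up to 6 per list. Marker genes and members at the thresholds were also named, and genes in small counts were named after their values were seen. Alternatives were stricter q-values, equal peak numbers, other overlaps, regions and TSS sets, and each replicate alone. Some named genes and sequences are not reported here.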

Additional observations from a re-analysis of the deposited data

How the results depend on the processing

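Restricting H3K4me3 to q-values up to 0.05 left members at 1.26% of the promoter regions in WT and 2.59% in KO. Equal peak numbers per library gave 1.28% in WT and 238 members (2.03%) in KO, with 29 shared, and no acetylation within 1 kb gave 1.26% and 2.47%. When H3K9ac had to be present in both replicates, there were 485 (4.03%) and 735 (5.61%) members and 190 shared, and intersected pieces gave 3.44% in KO. Each replicate alone gave 708 to 2194 members in WT (4.82% to 11.5%), 1664 to 1954 in KO (9.69% to 11.2%) and 242 to 342 shared. KO had more members than WT under 12 of 13 alternatives, at ratios of 0.891 to 2.35, the exception being R1 alone. H3K4me1 peaks of q-values up to 0.05 overlapped 3.35% of WT members, those covering 50% of the shorter interval 26.95% of KO members, and those of R1 0.559% and 0.756%. CpG-rich shares at regions with a TSS were 92.7% (WT) and 91.2% (KO) of members and 76.5% and 77.7% of acetylated regions, which stood at 63.2% and 64.8% at the region center and at 68.6% and 69.9% over the whole region. H3K9ac of the other genotype, an alternative set chosen after seeing the data, overlapped 28.4% of WT members with equal peak numbers, and with 1 replicate 11.4% to 26.1% of WT and 23.7% to 36.1% of KO members. The difference of 4.08 points between libraries was the same with the replicate block, since it is the mean of the paired differences (smallest paired p 0.5), and stayed positive at 1.93 to 6.24 with 1 replicate number and at 2.02 to 4.53 otherwise. Of all alternative values, 64 stayed within their margin and 40 did not. The order of the genotypes turned for the member counts with R1 alone and for H3K9ac of the other genotype with R2 alone (26.1% of WT and 23.7% of KO members). The causes were not tested. Unknown depth limits every statement on an absent peak.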

Other observations

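Some genes had an unacetylated H3K4me3 region beside an acetylated one, 19 genes in WT and 68 in KO. At *Irx5*, the KO member had H3K4me3 at 4.91 and 5.14, lay 807 bp from KO acetylation, and had WT H3K9ac at 2.26 in R1 alone. *Mrpl20*, of the mitochondrial ribosome, had a KO member of 397 bp that lay 74 bp from acetylation, with H3K4me3 at 6.87 and 3.43 in KO and at 13.1 and 4.20 in WT and with WT H3K9ac at 2.03 and 7.92. These genes were chosen after their values were seen.

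H3K4me1 of the KO R2 list overlapped 81 of 179 WT members (45.3%) and 50.1% of acetylated WT regions, and that of the WT R2 list overlapped 46 of 397 KO members (11.6%) and 15.3% of acetylated KO regions.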
